A study of Mus musculus and Rattus norvegicus with 8 samples.

Results

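The 10 genes described here encode the vascular endothelial growth factor VEGF-A (Vegfa), its receptors Flt1 and Kdr and their co-receptor Nrp1, the receptor tyrosine kinases Tek and Tie1 of the angiopoietin pathway, the receptors Acvrl1 (ALK1) and Eng (endoglin), the transcription factor Sox18 and the junction protein Pecam1. They were taken by symbol, as the probe sets whose only annotated gene was one of these 10, out of 9933 genes named on the arrays of both species. The mouse array held all 10 genes in 16 probe sets, of 8251 genes. The rat array held 6 of them, Vegfa, Flt1, Kdr, Nrp1, Acvrl1 and Pecam1, in 9 probe sets, of 4736 genes. Tek, Tie1, Eng and Sox18 were therefore measured in the mouse alone. All genes found on an array passed its filter on low signals and were tested.

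Lung RNA was measured on 8 oligonucleotide arrays, 1 per sample and 2 per group. The ventilated mice, male C57BL6 animals of 7 to 8 weeks, had been ventilated at a large tidal volume of 17 ml/kg (6 hours) or 35 ml/kg (2 hours), and which regimen each array had is not in the labels. Their controls, of the same strain, sex and age, breathed spontaneously. The ventilated rats, male Wistar animals of 8 weeks, received 12 ml/kg of room air for 5 hours, and their controls, also male Wistar animals of 8 weeks, breathed spontaneously through the same kind of tracheal cannula. Only the rat labels name a cannula in the controls. The species therefore differ in tidal volume, time and array as well. The labels say only that the replicates are separate samples, so each p-value measures the spread between these samples. In the ventilated mice that spread may include a difference in regimen.

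VEGF-A is made in the lung largely by alveolar epithelial cells and binds receptors on the capillary endothelium beside them, where Kdr carries most of the proliferative and survival signal and Flt1 binds the ligand tightly with weaker signalling. Angiopoietins act through Tek, and Tie1 modulates it, to keep the vessel wall quiescent. ALK1 and endoglin form a receptor complex for circulating bone morphogenetic proteins in endothelial cells, and mutations in their genes cause hereditary haemorrhagic telangiectasia in humans. Sox18 directs vascular and lymphatic differentiation, and Pecam1 is a classic surface marker of endothelium. In bulk lung RNA, fewer cells of a type and less RNA per cell cannot be told apart.

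The mouse genes lie on GRCm38.p6 at chr17:46016993-46032377 (Vegfa), chr5:147561604-147726438 (Flt1), chr5:75932827-75979072 (Kdr), chr8:128358591-128505476 (Nrp1), chr4:94739086-94874976 (Tek), chr4:118471191-118489849 (Tie1), chr15:101128522-101145336 (Acvrl1), chr2:32646595-32682669 (Eng), chr2:181669837-181671640 (Sox18) and chr11:106654213-106715281 (Pecam1). RefSeq promoter sequence was matched for 7 of the 10, all but Acvrl1, Sox18 and Pecam1. The 250 bases before the annotated start are shown for the ligand Vegfa (chr17:46032378-46032627, minus strand) and the receptors Tie1 (chr4:118489850-118490099, minus strand) and Eng (chr2:32646345-32646594, plus strand), because these windows lie wholly outside the annotated gene. The windows of Flt1, Kdr, Nrp1 and Tek and a further window of Vegfa overlap it. Capitals mark AGGAAG or its reverse complement CTTCCT, a core bound by the ETS factors of endothelial cells.
Vegfa: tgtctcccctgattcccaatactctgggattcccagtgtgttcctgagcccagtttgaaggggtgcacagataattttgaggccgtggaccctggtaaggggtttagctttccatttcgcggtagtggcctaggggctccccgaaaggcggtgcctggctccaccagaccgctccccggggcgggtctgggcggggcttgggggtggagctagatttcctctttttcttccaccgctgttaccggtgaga
Tie1: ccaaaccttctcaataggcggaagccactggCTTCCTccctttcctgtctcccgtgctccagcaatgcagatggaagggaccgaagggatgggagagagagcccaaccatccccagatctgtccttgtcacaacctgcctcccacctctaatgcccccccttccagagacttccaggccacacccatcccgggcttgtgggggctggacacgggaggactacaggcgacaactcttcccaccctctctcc
Eng: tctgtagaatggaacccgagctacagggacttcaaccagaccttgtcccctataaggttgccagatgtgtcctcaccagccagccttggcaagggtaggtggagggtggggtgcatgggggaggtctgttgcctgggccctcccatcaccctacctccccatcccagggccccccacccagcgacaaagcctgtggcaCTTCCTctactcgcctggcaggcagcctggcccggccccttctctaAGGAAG
The ETS letters occurred 1 time in the Tie1 window, 2 times in that of Eng and not in that of Vegfa. Over all windows they were found in 4 of the 7 matched genes (Flt1, Nrp1, Tie1 and Eng), and in 29.5% of 32851 windows of the same length over all mouse genes. ACAAT or ATTGT, a core bound by SOX factors, occurred 2 times in Tek and in no other matched gene, against 27.7% of all windows. ACGTG or CACGT, the core of the hypoxia response element, was found in 1 of the 7 genes, Vegfa, in the window that overlaps the gene, against 16.6% of all windows. AGATAA or TTATCT, a core bound by GATA factors, was found in 1 of the 7 genes, in the Vegfa window shown, against 9.99% of all windows. These counts are of genes and the shares are of windows. A gene with more than 1 window, here Vegfa, has more chances of a match.

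The surfactant protein C gene Sftpc stood at 8462 on every mouse array. It held the same quantile on each, which makes the normalised signals equal whatever the deposited signals were, so a change could not show. In the rat Sftpc stood at 1643 and 1969 in ventilated animals against 3097 and 2884 in controls. Replicate arrays correlated, across genes, at a Pearson r of 0.908 in ventilated mice and 0.935 in control mice, and of 0.977 in ventilated rats and 0.967 in control rats. Mouse control 1 and ventilated 2, of different groups, correlated at 0.963. Hybridisation spike-ins had a median ratio to the mouse control arrays of 2.62 on ventilated 1 and 0.96 on ventilated 2. Of the defining endothelial genes, the cadherin gene Cdh5 (1851 and 2245 in ventilated mice, 2762 and 1705 in control mice) and Vwf, the von Willebrand factor gene (1054 and 1205 in ventilated mice, 1270 and 1311 in control mice), were well measured in the mouse. In the rat, Vwf was near the floor, at 7.12 and 10.2 in ventilated animals and 19.9 and 10.0 in controls, where the floor was 11.5. All signals given here are normalised signals on a linear scale, and differences are on the log2 scale with signals under the floor (14.2 in the mouse) raised to it.

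In the rat, signals of all 6 measured genes were lower in both ventilated animals than in both controls, and 2 passed the test over all genes. Acvrl1, the ALK1 receptor gene, had signals of 400 and 305 in ventilated rats against 622 and 732 in control rats. It fell by 0.95 on the log2 scale (SE 0.18, limma adjusted p = 0.0366), to 0.518 of the control level. Vegfa, the ligand, had signals of 225 and 230 in ventilated rats against 371 and 359 in controls, and fell by 0.68 (SE 0.13, adjusted p = 0.0412), to 0.623 of the control level. The ventilated and control rats did not overlap in either gene. The background was high: limma called 5.78% of the 3876 rat genes and 3.3% lower, and in 27.1% of all genes both ventilated arrays lay below both controls.

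Both calls lie close to the threshold. Over the alternatives that kept all 4 arrays, the limma adjusted p ranged from 0.0238 to 0.176 for Acvrl1 and from 0.0343 to 0.123 for Vegfa. Of 17 alternatives for each gene 10 lost the call, including the removal of any 1 of the 4 arrays. Such a removal leaves 1 array in a group and cost almost every rat gene its call, so those losses are not particular to these 2 genes. Their log2 differences stayed between -1.13 and -0.75 for Acvrl1 and between -0.72 and -0.52 for Vegfa.

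**Figure D1:**
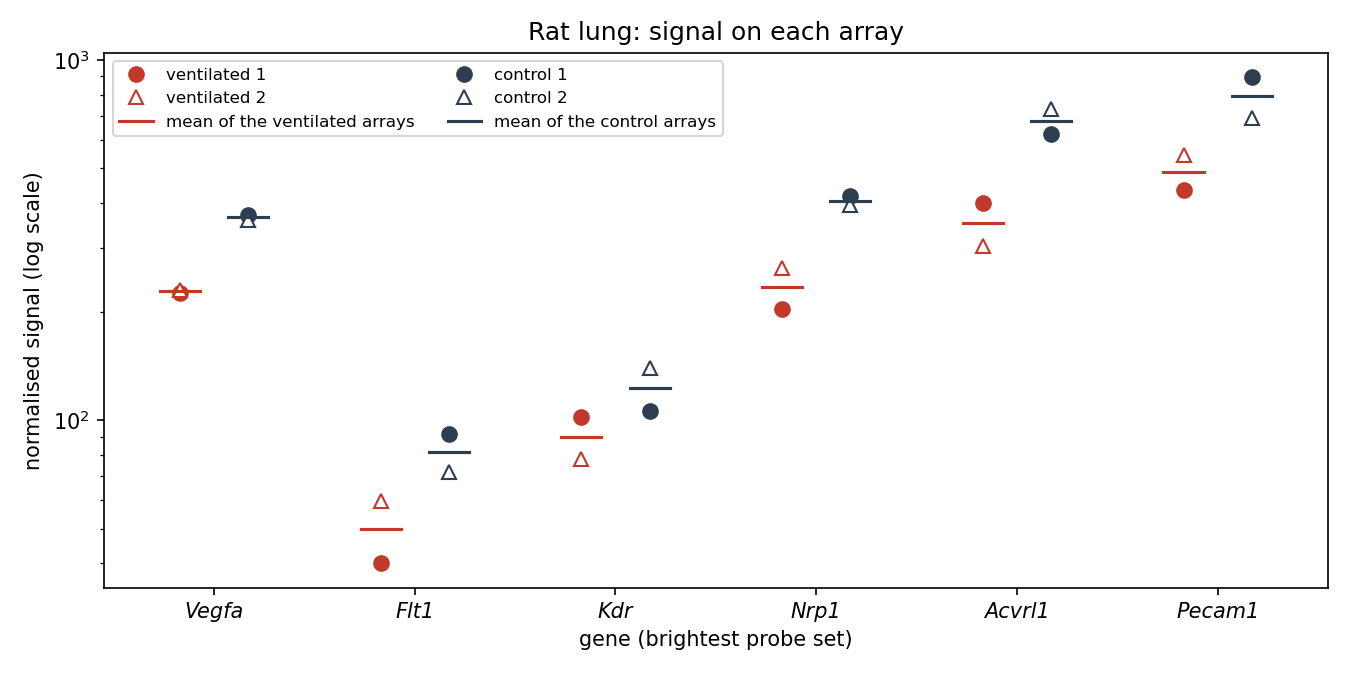
Normalised signal (log axis) of the brightest probe set of each gene on each rat array. Red symbols are the 2 ventilated and dark symbols the 2 control arrays, and lines are group means. In each of the 6 genes both ventilated arrays lie below both controls, for example at 400 and 305 against 622 and 732 for Acvrl1.

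Vegfa was measured in the rat by 4 probe sets. The second set had signals of 131 and 103 in ventilated rats against 184 and 143 in controls (-0.48 ± 0.22, SE). The third had 86.9 and 106 in ventilated rats against 135 and 114 in controls (-0.37 ± 0.20, SE), and the last had 46.6 and 45.2 against 72.0 and 62.9 (-0.55 ± 0.22, SE). All 4 gave lower signals in both ventilated rats. With every probe set of the array tested singly, the brightest passed (limma adjusted p = 0.0414), and the others had adjusted p of 0.23, 0.318 and 0.19 in the order given.

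The receptors of VEGF-A had the same direction in the rat without passing the test. Nrp1, the co-receptor, had signals of 204 and 265 in ventilated rats against 418 and 394 in controls, a log2 difference of -0.81 ± 0.17 (SE; adjusted p = 0.0505). Its groups did not overlap, and it passed under 3 of 17 alternatives. Flt1 had signals of 40.04 and 59.6 in ventilated rats against 91.6 and 71.9 in controls, a difference of -0.73 ± 0.28 (SE; adjusted p = 0.168). Kdr, the main signalling receptor, had signals of 102 and 77.8 in ventilated rats against 106 and 140 in controls, a difference of -0.45 ± 0.24 (SE; adjusted p = 0.296). For Kdr the nearest ventilated and control arrays almost touched. Pecam1 had signals of 434 and 545 in ventilated rats against 894 and 690 in controls, a difference of -0.69 ± 0.18 (SE; adjusted p = 0.0797). The median difference of the 6 genes was -0.71, against -0.01 over all rat genes, and the medians on the 2 ventilated arrays taken singly were -0.81 and -0.63. An unadjusted limma p under 0.05 was reached by 5 of the 6 genes, all lower, and by 25.3% of all rat genes, 12.2% lower. At or under 0.5 of the control mean stood 1 of the 6, Flt1, on ventilated 1, against 3.41% of all genes, and 1, Acvrl1, on ventilated 2, against 4.51%.

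The other endothelial genes of the rat array were mixed in size and mostly lower. Of 21 endothelial markers besides these genes, 16 were negative, 3 were called lower and 1 higher, with a median of -0.24. Over all rat genes 50.7% were negative, 5.78% were called and 3.3% were called lower. The prostaglandin transporter gene Slco2a1 fell by 1.36 (signals of 537 and 652 in ventilated rats against 1715 and 1340 in controls; adjusted p = 0.0122). Ece1, which encodes the endothelin-converting enzyme, fell by 1.03 (adjusted p = 0.016), and Ace, the angiotensin-converting enzyme gene of lung capillaries, fell by 0.89 (adjusted p = 0.0444). The marker called higher was Fabp4, a fatty acid binding protein gene shared with adipocytes, at 371 and 399 in ventilated rats against 72.4 and 70.8 in controls, a rise of 2.43 (adjusted p = 0.00165). Among 5 endothelial transcription factor genes 4 were negative, and the shear-responsive Klf4 fell by 0.63 (adjusted p = 0.0482). The call was lost under 13 of 17 alternatives for Klf4, 11 for Ace, 7 each for Slco2a1 and Ece1, and 4 for Fabp4. Each count includes the removal of any 1 array, which cost almost every rat gene its call.

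Genes that act with these receptors were mostly negative in the rat, where 50.7% of all genes were negative and 5.78% were called. Of 25 genes of VEGF receptor signal transduction, 16 were negative, 2 were called lower and 1 higher. The 1 called higher was Pdk1, a pyruvate dehydrogenase kinase gene that is also in the hypoxia list. The kinase gene Pdpk1 of the same list differed by 0.05 (limma adjusted p = 0.945). The phospholipase gene Plcg1, which binds activated Kdr, fell by 0.90 (137 and 143 in ventilated rats against 273 and 249 in controls; adjusted p = 0.0308), and Itpr1, a receptor that releases stored calcium, fell by 1.16 (adjusted p = 0.0366). With the mean of its probe sets Itpr1 differed by -0.33 (adjusted p = 0.406), and its call was lost under 9 of 17 alternatives, that of Plcg1 under 8. Of 18 genes of ALK1 and endoglin signalling, 13 were negative and 1 was called, the inhibitory Smad7, which fell by 1.67 with 1 ventilated array near the floor (12.5 and 21.2 in ventilated rats against 47.6 and 56.5 in controls; adjusted p = 0.045). The Smad7 difference was -0.93 with the floor at the 40th percentile, and its call was lost under 12 of 16 alternatives. Id1, a direct target of that pathway, had signals of 1246 and 1090 in ventilated rats against 1555 and 1871 in controls, a difference of -0.55 ± 0.13 (SE; adjusted p = 0.0678). Gja4, an arterial connexin gene of the same list, had one of -0.51 ± 0.13 (SE; adjusted p = 0.0762). Of 11 Notch genes 10 were negative, and Notch1 fell by 1.30, with 114 and 110 in ventilated rats against 276 and 276 in controls (adjusted p = 0.0117). Vegfb, a second ligand of Flt1, had signals of 28.6 and 18.8 in ventilated rats against 46.7 and 33.3 in controls, a difference of -0.77 ± 0.33 (SE; adjusted p = 0.218). Vegfb belongs to the list of other VEGF ligands and receptors, which also holds integrin and proteoglycan genes such as Itgav and Sdc4. None of its 7 genes tested in the rat was called, nor any of the 3 angiopoietin and Tie signalling genes.

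Genes of the hypoxia response, the best known inducer of Vegfa, were mixed in the rat. Of 11 such genes 7 were positive and 4 negative, with a median of 0.06. Hif1a, the oxygen-regulated factor, had signals of 47.9 and 57.6 in ventilated rats against 67.7 and 58.7 in controls, a difference of -0.26 ± 0.23 (SE; adjusted p = 0.529). Pdk1, a pyruvate dehydrogenase kinase gene that hypoxia induces and that also stood in the signal transduction list, rose by 1.79 (62.7 and 63.6 in ventilated rats against 21.2 and 15.8 in controls; adjusted p = 0.0208).

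Markers of other tissues moved with the same rat groups, where 50.7% of all genes were negative and 5.78% were called. The summed signal of 14 T, NK and B cell markers was 7691 and 8523 in ventilated rats against 1231 and 1083 in controls, with 10 called higher and 1 lower. That of 11 adipose markers was 4689 and 5019 in ventilated rats against 2601 and 2466 in controls, with 6 called higher and 1 lower, and that of 20 cardiac and skeletal muscle markers was 4739 and 4605 against 3349 and 3184, with 3 called higher. Of 9 neutrophil and macrophage markers 6 were positive and 3 negative, with a median of 0.22. Their summed signal was 7229 and 7699 in ventilated rats against 7634 and 7885 in controls. From this list S100a8, a neutrophil calcium-binding protein gene, was called higher (limma adjusted p = 0.0366), a call lost under 10 of 17 alternatives. Platelet and erythroid markers had 3 of 6 positive and none called. Alveolar epithelial markers, the cells that make VEGF-A, had 10 of 10 genes negative with 3 called lower, among them the lung transcription factor gene Nkx2-1, which fell by 1.33 (adjusted p = 0.00816), or by 0.82 with the mean of its probe sets, where the call was lost. Smooth muscle, pericyte and fibroblast markers had 10 of 15 negative with 7 called lower and 1 higher. The 1 called higher was Thy1, which is also counted among the T, NK and B cell markers called higher. Likewise Fabp4 is counted in both the adipose and the endothelial list, and Cav1 in both the alveolar epithelial and the endothelial list. The part of these shifts in the results for the VEGF and endothelial genes was not tested.

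Rat differences also varied with gene length. Genes were ordered by the length of the mouse locus, known for 94.1% of them, and divided into 5 equal bins. The median difference was 0.08 in bin 1, of short loci, and 0.06, 0.03, -0.06 and -0.18 in bins 2 to 5. Nrp1 (147 kb) and Flt1 (165 kb) lay in bin 5, where 12.8% and 14.7% of genes had a lower difference than theirs. Kdr (46.2 kb) and Pecam1 (61.1 kb) lay in bin 4, where 18.1% and 9.88% did. Acvrl1 (16.8 kb) lay in bin 3 and Vegfa (15.4 kb) in bin 2, where 2.47% and 4.66% of genes lay below them. The part of gene length in these results was not tested.

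**Figure D2:**
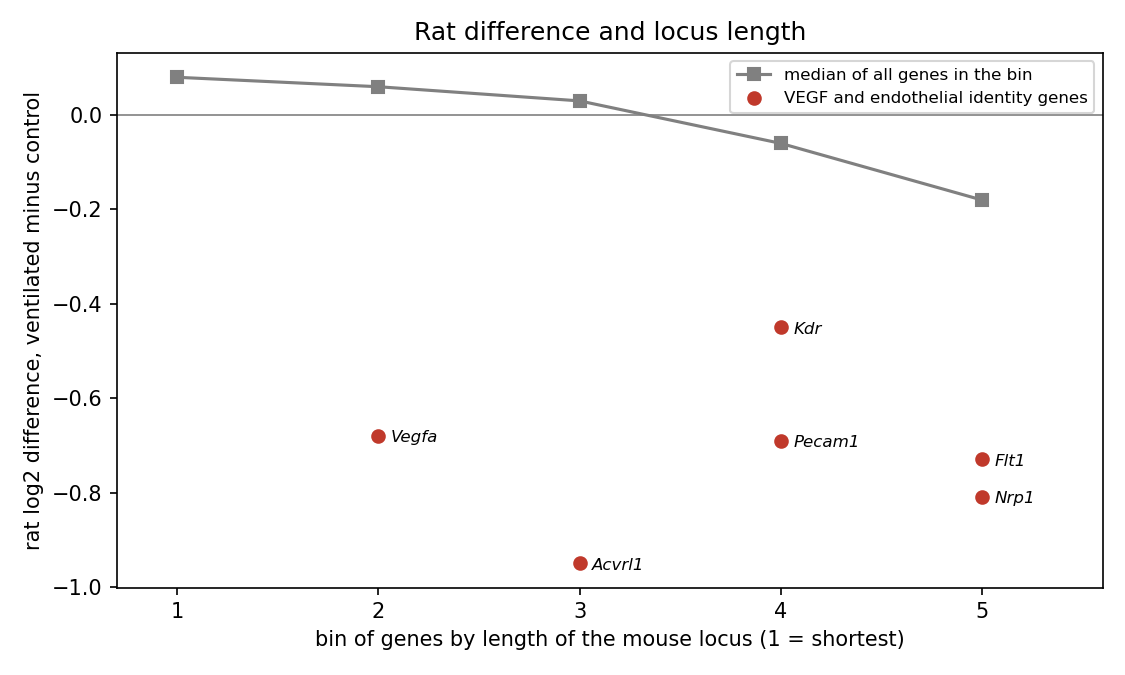
Rat log2 difference (ventilated minus control) of the 6 genes, as red points, against the bin of locus length (1 shortest, 5 longest), with the median of all genes per bin in grey. All 6 points lie below the grey medians, which are 0.08 in bin 1 and -0.18 in bin 5.

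In the mouse, limma called none of the 10 genes, and none of all 6888 genes (0%). An unadjusted p under 0.05 was reached by 178 genes (2.58%), 67 of them lower (0.973%), and by 1 of the 10, Sox18. Sox18, the endothelial transcription factor gene, was lower on both ventilated arrays, at 451 and 471 in ventilated mice against 855 and 768 in control mice, a log2 difference of -0.81 ± 0.24 (SE; limma adjusted p = 1). A second Sox18 probe set gave 373 and 363 in ventilated mice against 629 and 555 in controls, a difference of -0.68 ± 0.25 (SE). Both ventilated mice lay under both controls in each probe set. The difference lay between -0.90 and -0.74 under all 17 alternatives, including those without either ventilated mouse, and its adjusted p was 0.516 or more in each of them.

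Acvrl1 was the other gene whose groups did not overlap, which 14.5% of all mouse genes also showed in this direction. Its brightest probe set had signals of 714 and 886 in ventilated mice against 1063 and 1111 in control mice, a difference of -0.45 ± 0.24 (SE). A second probe set gave -0.61 ± 0.34, with 277 and 359 in ventilated mice against 376 and 619 in controls. The third, at 234 and 161 in ventilated mice against 166 and 235 in controls, gave -0.03 ± 0.35 with overlapping groups. Eng, its partner receptor gene, had signals of 2690 and 3674 in ventilated mice against 4267 and 3109 in controls, a difference of -0.21 ± 0.26 (SE) whose sign turned without ventilated 1 or control 1.

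Kdr, Nrp1, Tek and Tie1 had their lowest signals on ventilated 1. Kdr had signals of 107 and 456 in ventilated mice against 527 and 437 in control mice. The log2 difference from the control mean was -2.16 on ventilated 1 and -0.07 on ventilated 2. Nrp1 had signals of 395 and 1453 in ventilated mice against 1817 and 1430 in controls, and a second probe set had 262 and 555 against 662 and 571. Ventilated 1 was again the low array, at -2.03 and -1.23 from the control mean, and in the second set ventilated 2 also lay just under both controls. Tek had signals of 222 and 465 in ventilated mice against 508 and 343 in controls. Tie1 had 420 and 1020 in ventilated mice against 795 and 738 in controls, and 260 and 674 against 900 and 551 in its second probe set. In all 6 probe sets of these 4 genes the lowest of the 4 signals was that of ventilated 1. On that array 2 of the 10 genes, Kdr and Nrp1, were at or under 0.5 of the control mean, as were 6.9% of all genes, against 0 of the 10 and 1.71% of all genes on ventilated 2.

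The group differences of these genes rested on that array. Kdr had a log2 difference of -1.12 ± 0.64 and Nrp1 one of -1.09 ± 0.58 (SE), and without ventilated 1 these were -0.07 and -0.15. Tek had one of -0.38 ± 0.42 and Tie1 one of -0.23 ± 0.43 (SE), and without ventilated 1 they were 0.15 and 0.41. The median over the 10 genes was -0.30, against -0.03 over all mouse genes. Of the 10, 7 were negative and 3 positive, where 53.2% of all mouse genes were negative. Taken singly, the median of the 10 genes was -0.72 on ventilated 1 and -0.08 on ventilated 2.

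**Figure D3:**
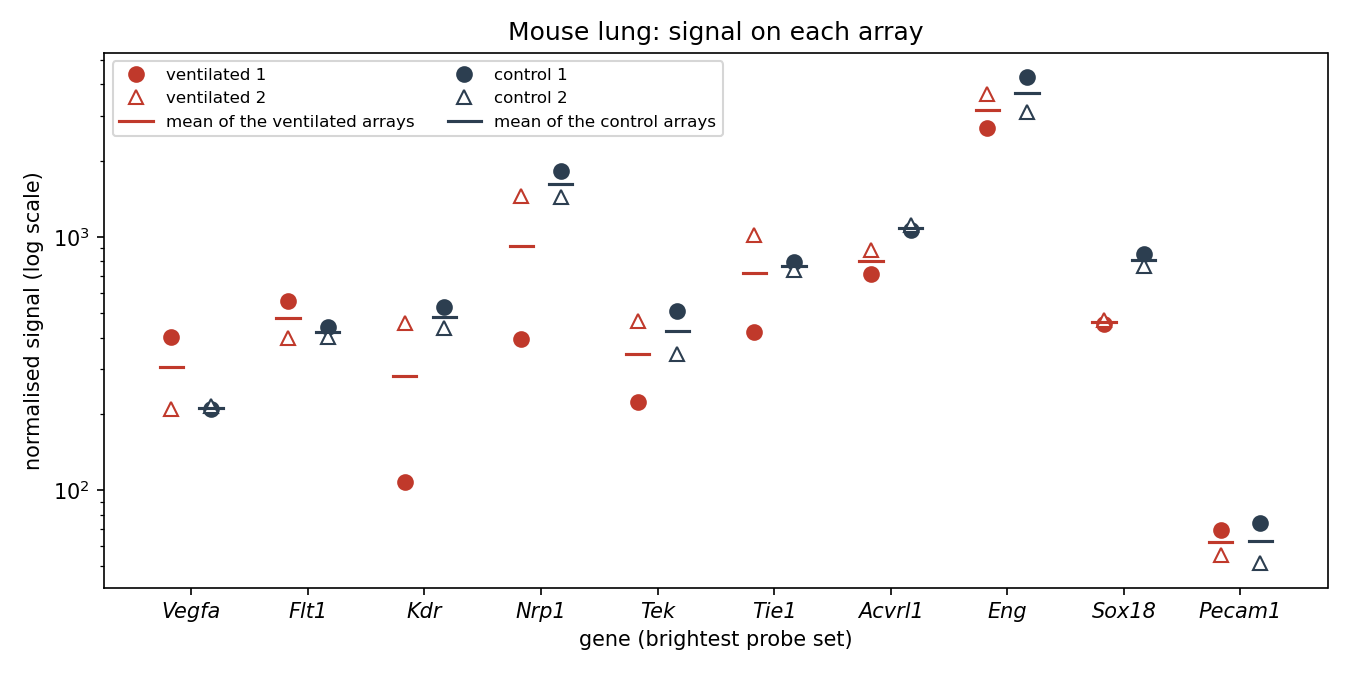
Normalised signal (log axis) of the brightest probe set of each of the 10 genes on each mouse array. Red symbols are the 2 ventilated and dark symbols the 2 control arrays, and lines are group means. Both Sox18 ventilated points (451 and 471) lie under both controls, whereas for Kdr, Nrp1, Tek and Tie1 only ventilated 1 lies under the controls.

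Vegfa and Flt1 were high on the same array. Vegfa had signals of 402 and 209 in ventilated mice against 209 and 214 in control mice, a difference of 0.45 ± 0.38 (SE), and without ventilated 1 it was -0.01. Flt1 had signals of 556 and 398 in ventilated mice against 442 and 401 in controls, a difference of 0.16 ± 0.28 (SE). A second Flt1 probe set had 355 and 207 in ventilated mice against 208 and 147 in controls, a difference of 0.63 ± 0.38 (SE). Ventilated 1 was thus the brightest of the 4 arrays for the ligand and for both probe sets of Flt1, and the dimmest for Kdr. Pecam1 was dim in the mouse, at 69.5 and 55.2 in ventilated mice against 74.4 and 51.4 in controls, with overlapping groups and a difference of 0.00 ± 0.38 (SE).

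Other gene lists differed between the 2 ventilated mice as well. Hypoxia factors and targets had a median of 0.57 over the control mean on ventilated 1 and 0.05 on ventilated 2. In this list Ndrg1, a stress-induced gene, had signals of 724 and 244 in ventilated mice against 206 and 226 in controls, while Epas1, the hypoxia factor of endothelium, had 382 and 294 in ventilated mice against 192 and 153 in controls (0.96 ± 0.30, SE; adjusted p = 1). Hif1a had 1204 and 1186 in ventilated mice against 1060 and 829 in controls, a difference of 0.35 ± 0.24 (SE). The summed signal of 17 neutrophil and macrophage markers was 15321 and 5622 in ventilated mice against 5317 and 6733 in controls. That of 17 smooth muscle, pericyte and fibroblast markers was 5424 and 12801 in ventilated mice against 12491 and 8887 in controls. The spike-in ratio given above was high on ventilated 1 too, and the 3′ to 5′ signal ratio of the transferrin receptor control was 3.39 and 2.79 in ventilated mice against 4.34 and 7.28 in controls. For the pyruvate carboxylase control it was 4.82 and 3.9 in ventilated mice against 4.01 and 9.21 in controls, with overlapping groups. The 2 ventilated mice may also differ in regimen, which the labels do not give per array. The part of these shifts, or of regimen, in the values of the VEGF and Tie genes was not tested.

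Other endothelial markers were mixed in the mouse, where 53.2% of all genes were negative. Of 35 further endothelial markers 22 were positive and 13 negative, their median was 0.14 on ventilated 1 and 0.26 on ventilated 2, and their summed signal was 19211 and 22418 in ventilated mice against 22134 and 17383 in controls. The 4 of smallest p were Edn1, Lyve1, Ackr3 and Cldn5, all higher on both ventilated arrays, as were 12.9% of all mouse genes. Genes picked by smallest p tend to have groups that do not overlap. Edn1, which encodes the vasoconstrictor endothelin, had signals of 293 and 347 in ventilated mice against 117 and 132 in controls (1.35 ± 0.29, SE). Lyve1, a lymphatic endothelial receptor gene, had 698 and 558 in ventilated mice against 327 and 233 in controls (1.18 ± 0.30, SE). Cldn5, a tight junction gene of endothelium, had 2397 and 3088 in ventilated mice against 1995 and 1751 in controls (0.54 ± 0.23, SE). None passed the test over all genes (adjusted p = 1 for each).

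Endothelial transcription factor genes other than Sox18 had 12 of 22 members positive and 10 negative in the mouse, and none was called. Both ventilated arrays lay above both controls in 7 of the 22 and below in 2, against 12.9% and 14.5% of all mouse genes. The 2 below were Lyl1 (-0.80 ± 0.32, SE) and Meox2 (-1.77 ± 0.89, SE). Klf4, Klf2 and Foxf1 are given because their p was among the smallest of the list. Genes so picked tend to have groups that do not overlap. The shear-responsive factors Klf4 and Klf2 were higher in both ventilated mice. Klf4 stood at 1363 and 1310 against 675 and 612 in controls (1.06 ± 0.23, SE) and Klf2 at 306 and 396 against 214 and 179 (0.83 ± 0.30, SE). Foxf1, a mesenchymal and endothelial factor gene of the lung, had 224 and 359 in ventilated mice against 107 and 75.2 in controls (1.66 ± 0.37, SE). Klf4 thus had opposite signs in the 2 species, a fall in the rat and a positive value in the mouse, and the limma test of the difference, -1.69 ± 0.25 rat minus mouse (SE), missed the threshold (adjusted p = 0.0553). With the mean of its probe sets Klf4 differed by 0.53 in the mouse and -0.89 in the rat.

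The list of other VEGF ligands and receptors, which also holds integrin, proteoglycan, semaphorin and plexin genes, had 11 of 15 genes positive in the mouse. Of the angiopoietin and Tie signalling genes 3 of 6 were positive. Over all mouse genes 53.2% were negative. Vegfb had signals of 148 and 164 in ventilated mice against 206 and 198 in controls (-0.38 ± 0.29, SE), and Flt4, the lymphatic VEGF receptor gene, 241 and 283 against 232 and 209 (0.24 ± 0.28, SE). Angpt2, the ligand that destabilises vessels through Tek, had signals of 28.5 and 92.4 in ventilated mice against 110 and 72.8 in controls (-0.80 ± 0.60, SE), again with its lowest value on ventilated 1. Angptl4, an angiopoietin-like gene induced by fasting and hypoxia, had 430 and 273 in ventilated mice against 158 and 121 in controls (1.31 ± 0.35, SE), and a difference of 0.56 with the mean of its probe sets. Id1 had 546 and 549 in ventilated mice against 398 and 310 in controls (0.64 ± 0.27, SE), and Plxna2, a semaphorin receptor gene, 127 and 126 against 50.6 and 65.2 (1.14 ± 0.34, SE). The adjusted p was 1 for each of these genes, and none of the 243 list genes tested in the mouse was called.

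**Figure D4:**
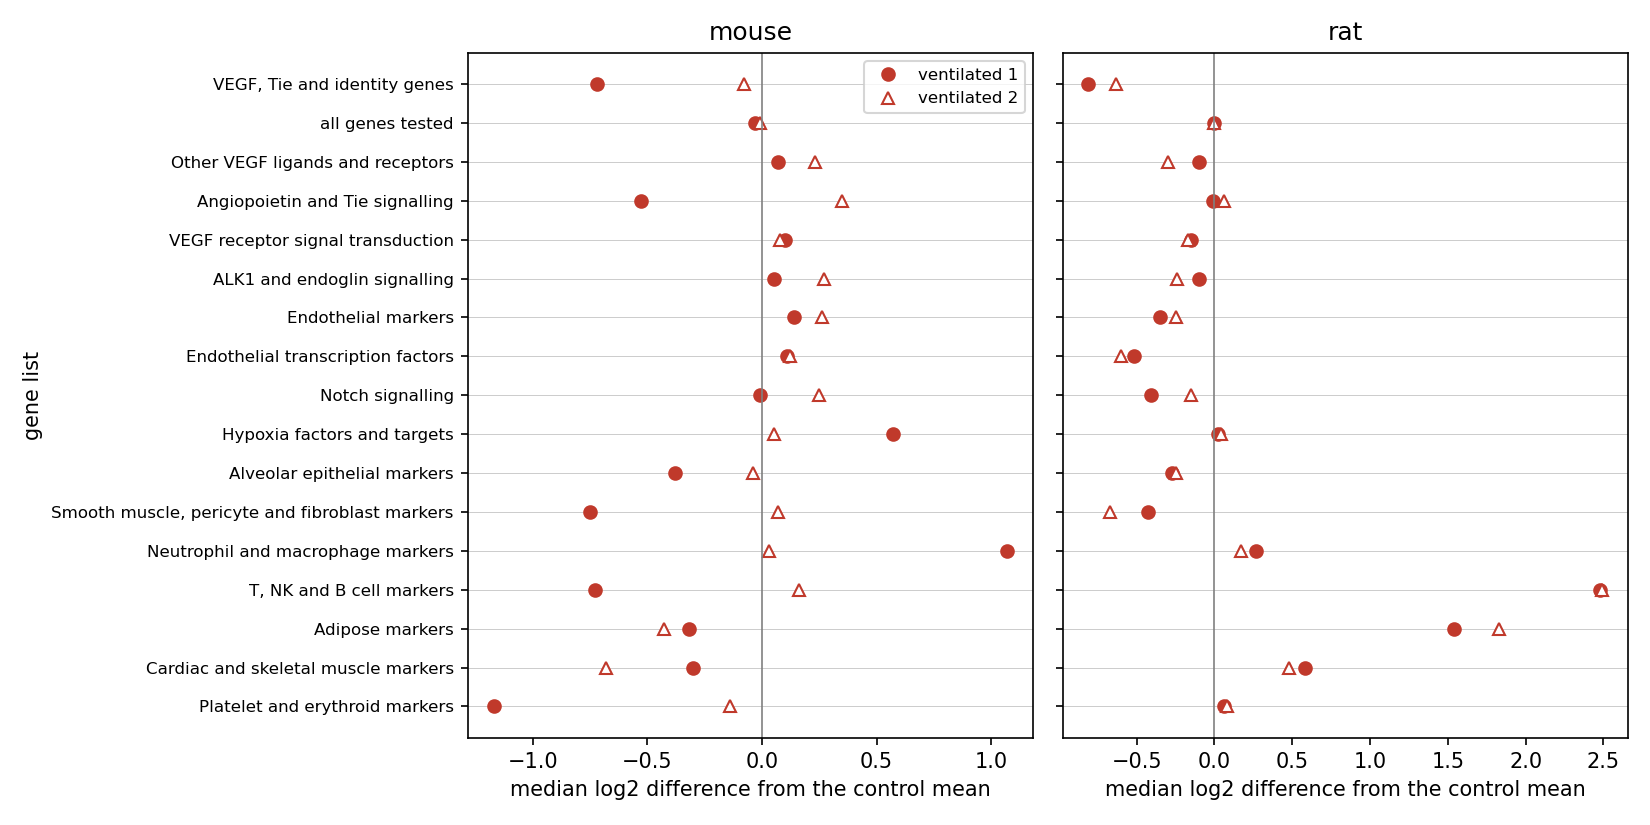
Median log2 difference from the control mean of each gene list on each ventilated array, mouse on the left and rat on the right. The 10 mouse genes lie at -0.72 on ventilated 1 and -0.08 on ventilated 2, and the 6 rat genes at -0.81 and -0.63, while all genes tested lie near 0.

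The 6 genes measured in both species were compared directly among 2256 shared genes. Averaged over species, all 6 were negative and none passed. Acvrl1 had the smallest p of them, with an average difference of -0.70 ± 0.15 (SE; adjusted p = 0.203), followed by Nrp1 at -0.95 ± 0.36 (SE; adjusted p = 0.39). No gene of the 2256 (0%) passed in this average. An unadjusted limma p under 0.05 was reached by 2 of the 6 and by 247 genes (10.9%), 5.5% lower. The test of the difference between species called 3 genes (0.133%), 0.0887% with the rat lower, and none of the 6. An unadjusted p under 0.05 was reached by 1 of the 6, Vegfa, and by 12.7% of all genes, 6.65% with the rat lower. The largest difference among the 6 was that of Vegfa, -1.14 ± 0.42 rat minus mouse (SE; limma adjusted p = 0.32), followed by Flt1 at -0.89 ± 0.41 (SE; adjusted p = 0.424). Kdr and Nrp1 had differences of 0.67 ± 0.81 and 0.28 ± 0.72 (SE), each smaller than its standard error. A species difference was thus not detectable here for any of the 6, and an equal response is not shown either.

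**Figure D5:**
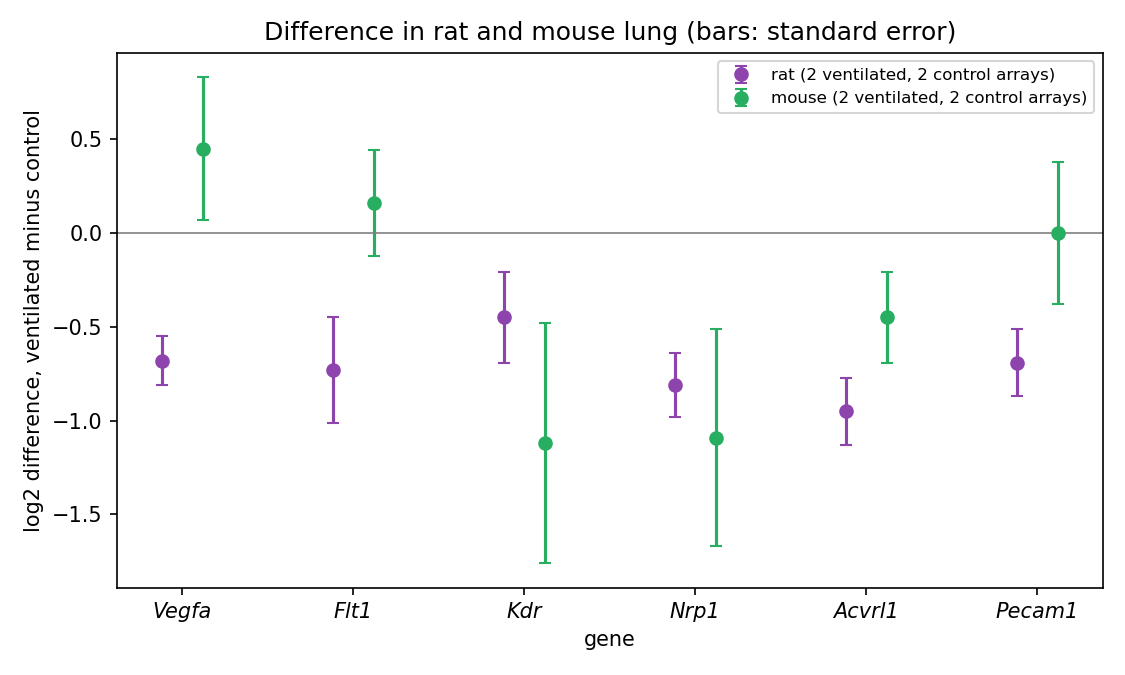
Log2 difference (ventilated minus control) with its standard error for the 6 genes measured in both species, rat in purple and mouse in green. The rat values lie between -0.45 and -0.95, and the mouse values between -1.12 for Kdr and 0.45 for Vegfa.

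By likeness of pattern over the 8 arrays, centred within each species, the 5 genes closest to the mean of the 6 shared genes were Gpr182 (Pearson r = 0.99), Atp9a (0.98), Muc1, Sf3b1 and Grn (0.97 each), among 2256 genes. Gpr182, an endothelial chemokine-binding receptor gene, had a difference of -0.93 in the rat (adjusted p = 0.0202) and -0.51 in the mouse. Muc1, an epithelial mucin gene, had signals of 269 and 260 in ventilated rats against 487 and 576 in controls (adjusted p = 0.0181), and a difference of -0.49 in the mouse. The 8 arrays share species and group, so the high values of r are a description of these arrays. All 6 genes were lower in both ventilated rats, so genes chosen for likeness to them tend to be lower there too. The rat differences of Gpr182 and Muc1 and their adjusted p are therefore no separate support.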

How the data were processed

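RNA of whole mouse and rat lungs was labelled after first-strand synthesis, per the labels, and hybridised to 1 Affymetrix array per sample. The authors deposited 1 linear signal intensity per probe set and array. Trimmed means of 149 to 150 on every array show a common scaling. The software is not given in the sources used here. Experiment files name the array type alone, so no date or lot could serve as a batch. Depth does not apply to arrays, and 2 arrays per group limit the precision.

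Probe sets were named from GEO's platform annotation, with mouse symbols updated through the gene ID, and species were matched by symbol. Mouse probe sets with 1, several and no symbol were 10833, 396 and 1193, and rat ones 7006, 308 and 1426. Within a species the arrays were quantile-normalised, signals under the 25th percentile raised to it, and log2 taken. Each gene is its brightest probe set, kept if its mean exceeded the 25th percentile. Group differences were fitted by limma 3.58.1 under R 4.3.3 (lmFit, then eBayes with trend), two-sided, and called at a Benjamini-Hochberg adjusted p under 0.05 over all genes. The fit over both species had species-specific group means and tested the average and the difference, rat minus mouse. The 10 genes, the 15 other lists and the rule for naming genes (all called list genes, otherwise the 4 of smallest p per list, and fixed ligand and receptor partners) were chosen with earlier results of these data known. The code was tested on simulated data. Promoters are from RefSeq, GRCm38.p6.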

Additional observations from a re-analysis of the deposited data

Results flagged for a closer look

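Among the 142 other list genes measured in both species, 14 (9.86%) had both ventilated arrays below both controls in the rat and above both controls in the mouse, against 4.3% of all 2256 shared genes. The opposite pattern was shown by 5 (3.52%), against 4.7% of all shared genes. These genes were picked out after their values were seen, and the limma test of the difference, rat minus mouse, over all shared genes called 1 of the 19.

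Of the 14, the difference was -2.12 for Fn1 (fibronectin, adjusted p = 0.0747), -1.69 for Klf4 (0.0553), -1.68 for Ackr3 (0.162), -1.56 for Edn1 (0.0885), -1.54 for Ace (0.136) and -1.45 for Dll1, a Notch ligand gene (0.299). It was -1.27 for Acvr1, -1.24 for Smad1, -1.19 for Id1, -0.93 for Calcrl, -0.84 for Lpl, -0.61 for Hif1a, -0.60 for Akt1 and -0.59 for Thbd, with adjusted p of 0.145 to 0.484. Of the 5, Gpd1, an adipose marker, passed with a difference of 3.57 (adjusted p = 0.024). Pparg had 1.10, Myl7 1.03, Dcn 0.74 and Id2 0.50, with adjusted p of 0.307 to 0.543. With the mean of probe sets the difference of Klf4 was -1.41 (adjusted p = 0.0762). Klf4 passed under 8 of 20 alternatives, with adjusted p of 0.0095 to 0.363 over all of them, and Gpd1 lost its call under 7 of 20, among them the removal of any 1 rat array and the replicate block. The species also differ in tidal volume, time and array, and these cannot be told apart from species here.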

How the results depend on the processing

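With 2 arrays per group, no gene and none of the 10 was called in the mouse under any of 18 alternatives. In the rat the number of genes called, 224, was 23 with the floor at the 40th percentile, 39 without a filter, 61 without the variance trend, 146 with the replicate block, 395 over every probe set and 479 at an adjusted p under 0.10; without 1 array it was 0 to 7, the remaining array of that group being assumed to vary like the other group. Of the calls 96 were higher and 128 lower, against 155 and 102 with median scaling. The number of the 6 rat genes called, 2, was 0 with median scaling, the 40th percentile floor, no filter, the mean of probe sets or no trend, 1 on the values as deposited and with the replicate block, 4 at an adjusted p under 0.10, and 0 without any 1 array. Their median, -0.71, was -0.62 with median scaling and -0.85 to -0.62 without 1 array. The mouse median, -0.30, was -0.72 to -0.08 without 1 array. Genes called over both species, 0, were 3 with median scaling or at 0.10, 1 as deposited or by the mean of probe sets, 5 with the 40th percentile floor, 15 without a filter and 0 to 82 without 1 array, and of the 6 genes 0 to 3. Genes called for a species difference, 3, were 10 with median scaling, 6 as deposited or by the mean of probe sets, 11 with the 40th percentile floor, 7 with a floor of 1, 22 without a filter, 1 without the trend, 0 with the replicate block, 26 at 0.10 and 0 to 77 without 1 array, and of the 6 genes 0 to 1. Without mouse ventilated 2, Kdr, Nrp1 and Acvrl1 passed over both species (adjusted p = 0.0158, 0.0114 and 0.0348) and Vegfa passed as a species difference (-1.59, adjusted p = 0.0276), which was -0.67 without mouse ventilated 1 (adjusted p = 0.34). Signs turned in the mouse when 1 array was left out, where differences were -0.01 to 0.91 for Vegfa, -0.08 to 0.40 for Flt1, -0.90 to 0.15 for Tek, -0.86 to 0.41 for Tie1 and -1.62 to 0.04 for Angpt2, each turned without ventilated 1. They were -0.47 to 0.02 for Eng (turned without ventilated 1, 0.01, or control 1), -0.26 to 0.27 for Pecam1 (without control 2, or ventilated 1, -0.16) and -0.43 to 0.25 for Cdh5 (without control 1, or ventilated 1, 0.05). Pecam1 was -0.04 as deposited, and Cdh5 was 0.10 with median scaling and 0.04 as deposited. Over both species Vegfa was -0.35 to 0.11, turned without mouse ventilated 2. The species difference was -0.38 to 1.68 for Kdr and -0.66 to 1.22 for Nrp1, turned without mouse ventilated 1. The cause was not tested. Same-numbered arrays deviated with a correlation of -0.285 in the mouse and -0.106 in the rat. With 2 arrays per group, these values show no pairing by number but cannot exclude shared handling. A crossed replicate block, chosen after seeing the data, called 0 mouse genes, 232 rat genes with 4 of the 6, 15 over both species and 38 species differences. The array batch alternative was not run, since no date or lot was given.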
